A study of Mus musculus with 2 samples.

Results

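R-loop peaks were examined at 9 genes for basic helix-loop-helix (bHLH) transcription factors that specify neurons and oligodendrocytes, out of 22367 protein-coding genes annotated on the mouse genome mm9. These were Neurog1, Neurog2, Neurod1, Neurod2, Neurod6, Atoh1, Olig1, Olig2 and Bhlhe22, and each was found by its symbol in the GENCODE M1 annotation. A peak was assigned to a gene when it overlapped the gene or lay within 10 kb of it, which gave 4 of the 22132 peaks. Primary neural stem and progenitor cells (NSPCs) had been cultured from the frontal brain of C57BL/6 mice at postnatal day 7. Aphidicolin, an inhibitor of DNA polymerases that slows replication, was present at 0.5 μM for 48 h, a treatment that the sample labels do not name and that was taken from the published methods. DNA-RNA hybrids were recovered with the S9.6 antibody from DNA cut by 5 restriction enzymes (DRIP), and 1 list of peaks was analysed, while the input library was not analysed here. The list holds positions only, so the depth is unknown, no value below has a replicate error, and no test between groups was possible. In a culture of many cells, a hybrid in few cells and a weak one in all cells cannot be told apart.

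An R-loop is a DNA-RNA hybrid with a displaced single strand, which often forms when RNA pairs with its template behind RNA polymerase, and G-rich transcripts favour it. Proneural bHLH factors bind E-boxes, short motifs read CANNTG, together with E proteins, and they drive progenitors out of the cell cycle and into neuronal differentiation. Olig1 and Olig2 belong to the same family, and Olig2 is required for the oligodendrocyte lineage and for spinal motor neurons. A peak in the list is a position of hybrid signal and is no measure of the gene's expression, and the absence of a peak says only that none was called.

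Peaks were found at Olig1 and Olig2 and at none of the other 7 genes. The Olig2 promoter lay wholly within a peak, whereas the peak at Olig1 began only 41 bases upstream of the transcription start site (TSS). The 200 bases upstream of both TSSs are shown because they carry this contrast, and those of Neurog2 and Neurod1 because they were the 2 of the 9 promoters with the highest GC skew, a measure of G over C, while no peak lay on them. Sequences are from the mm9 genome, on the coding strand, and capitals mark bases within a peak. Olig1 is at chr16:91269814-91270013 on the plus strand, Olig2 at chr16:91225595-91225794 on the plus strand, Neurog2 at chr3:127335854-127336053 on the plus strand and Neurod1 at chr2:79296909-79297108 on the minus strand.
Olig1: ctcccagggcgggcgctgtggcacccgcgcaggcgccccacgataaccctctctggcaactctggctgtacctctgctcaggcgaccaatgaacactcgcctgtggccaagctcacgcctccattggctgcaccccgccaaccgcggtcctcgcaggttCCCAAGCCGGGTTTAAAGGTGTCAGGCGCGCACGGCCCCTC
Olig2: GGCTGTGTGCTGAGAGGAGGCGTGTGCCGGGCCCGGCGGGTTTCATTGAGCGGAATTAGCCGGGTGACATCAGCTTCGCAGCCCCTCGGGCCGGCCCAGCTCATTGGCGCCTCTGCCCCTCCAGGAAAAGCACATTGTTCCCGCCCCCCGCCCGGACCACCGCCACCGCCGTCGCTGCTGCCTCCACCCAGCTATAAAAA
Neurog2: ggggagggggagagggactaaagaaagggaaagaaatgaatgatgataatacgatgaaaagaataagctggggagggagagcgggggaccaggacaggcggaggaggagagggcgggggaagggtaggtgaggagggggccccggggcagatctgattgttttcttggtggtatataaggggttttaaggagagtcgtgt
Neurod1: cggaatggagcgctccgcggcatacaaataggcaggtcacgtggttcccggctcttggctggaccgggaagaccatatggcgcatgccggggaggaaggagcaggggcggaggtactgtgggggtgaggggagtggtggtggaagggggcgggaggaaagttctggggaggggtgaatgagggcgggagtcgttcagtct

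GC skew, the number of G minus that of C divided by their sum, was computed for these 200 bases as read on the coding strand. Neurog2 had a skew of 0.688, higher than in 99.9% of all protein-coding promoters, and Neurod1 had 0.473, higher than in 99.1%. The corresponding values were -0.185 for Olig1 and -0.119 for Olig2, against a median of -0.00840 over all promoters and of -0.0244 over genes whose TSS lay in a peak. Both genes with a peak thus had more C than G in these 200 bases, and both genes with the strongest excess of G had no peak. These bases lie upstream of the annotated transcript of the gene itself. At Neurod1 they also lie within Gm17325, a long non-coding RNA gene on the opposite strand. The part nearest the Neurod1 TSS lies within Cerkl, on the same strand. In the first kb of the gene, the skew was 0.0253 at Neurog2 and 0.0129 at Neurod1, below the median of 0.0390 over protein-coding genes. Whether skew bears on the peaks was not tested. Of the 29 promoters with a skew at least as high as that of Neurog2, 17.2% had their TSS in a peak. Of the 212 at least as high as Neurod1, 11.3% did, against 14.9% of all protein-coding genes. The remaining promoters ranged from -0.213 at Neurod6 to 0.143 at Neurod2.

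**Figure D1:**
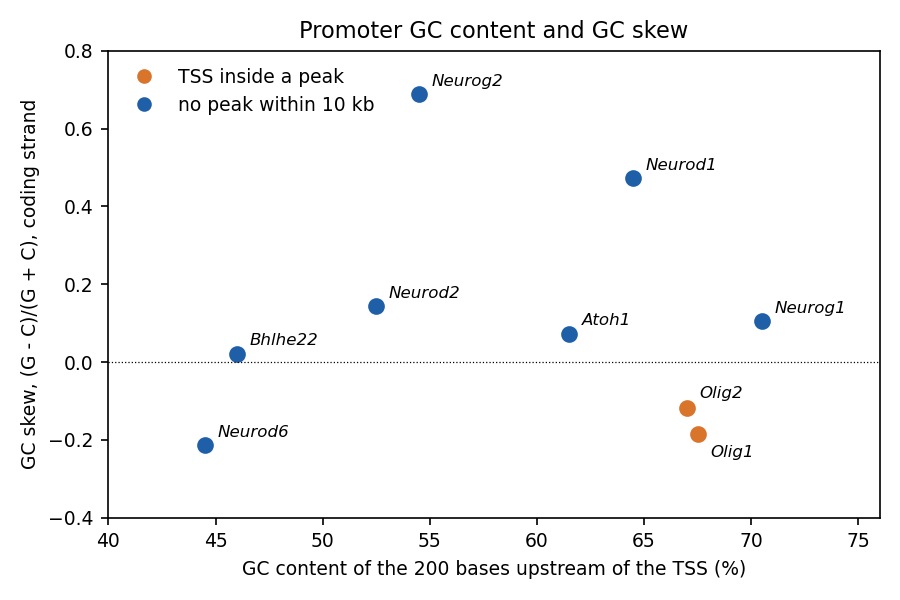
GC content in percent (horizontal) and GC skew on the coding strand (vertical) of the 200 bases upstream of the TSS, with 1 point per gene, orange where the TSS lies in a peak and blue where no peak is within 10 kb. Neurog2 (0.688) and Neurod1 (0.473) stand highest in skew without a peak, while Olig1 (-0.185) and Olig2 (-0.119) lie below 0, on the GC-rich side of the plot.

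The E-box was searched as CANNTG, a pattern that finds the same sites on both strands, and as CAGCTG, which is 1 form of it and is counted in both. No CANNTG was present in the 200 bases upstream of Olig1, Olig2, Neurog2 or Atoh1. The same stretch held 3 at Neurod2, 2 each at Neurod1, Neurod6 and Bhlhe22, and 1 at Neurog1, and CAGCTG was in none of the 9. Over all 22367 promoters of this length, 54.8% held CANNTG and 9.64% held CAGCTG.

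In all, 2 of the 9 genes (22.2%) had a peak inside the gene, compared to 39.6% of protein-coding genes. The TSS lay in a peak at 2 genes, where the background was 14.9%, and the gene end at 1, with a background of 10.9%. Olig1 was covered from end to end, which was the case for 1.81% of protein-coding genes of any length, with or without a peak. A peak within 10 kb was present at 2 genes, against a background of 51.3%. Because short genes offer less room for a peak, the shares were also read among the 2300 protein-coding genes of 1.66 to 4.23 kb, the range of the 9 genes. Of these, 25.2% held a peak, 16.6% had the TSS in one and 41.4% had one within 10 kb. In the 580 genes of this length with a peak, peaks covered a median of 70.0% of the gene. Coverage from end to end was much more frequent in those 580 genes than in all protein-coding genes. The full coverage of Olig1 is therefore not rare for a gene of its length with a peak. Among the 19888 genes whose GC content within 2 kb of the TSS was between 39.5 and 59.8%, the range of the 9 genes, 43.3% held a peak. With both limits, 2036 genes remained, of which 27.3% held a peak and 44.7% had one within 10 kb. The share of the 9 genes with a peak inside was therefore near that of genes of similar length, and 9 genes are few for reading a share.

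**Figure D2:**
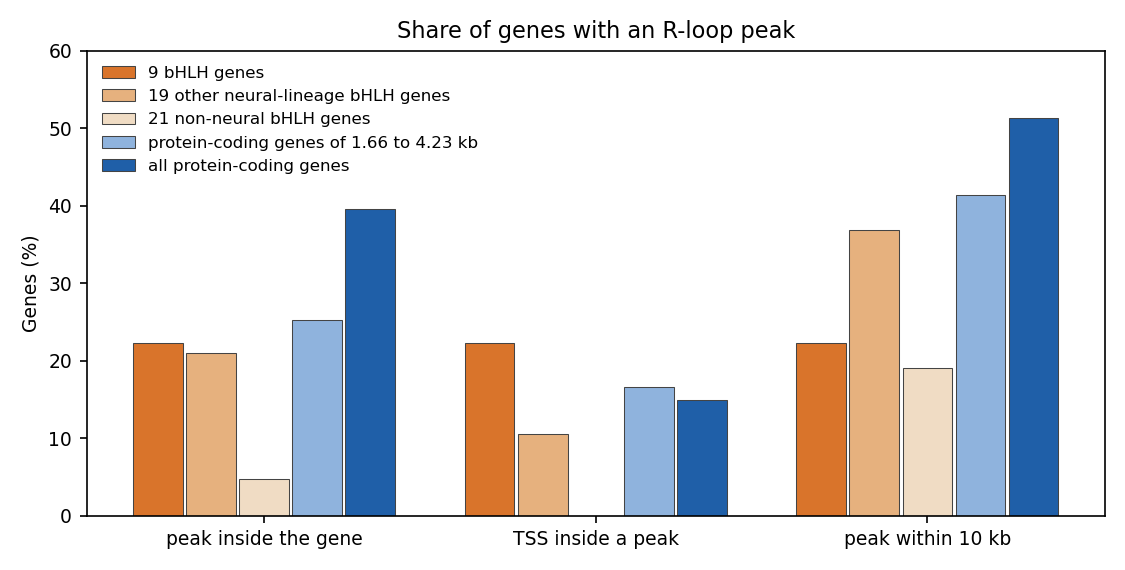
Percent of genes with a peak inside the gene, with the TSS in a peak and with a peak within 10 kb, as bars for the 9 genes, 19 other neural-lineage and 21 non-neural bHLH genes, protein-coding genes of 1.66 to 4.23 kb and all protein-coding genes. For a peak inside the gene, the 9 genes are at 22.2%, genes of that length at 25.2% and all protein-coding genes at 39.6%.

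Olig2 (ENSMUSG00000039830), the regulator of oligodendrocyte and motor neuron fate, is a gene of 3.13 kb with 2 exons on the plus strand, at chr16:91225795-91228922. Its peak, at chr16:91220405-91228436, was 8.03 kb wide, wider than 96.5% of all peaks and than 88.1% of the peaks over a TSS. It began 5390 bp upstream of the TSS and ended 2641 bp downstream of it, within the gene. Of the peak, 67.1% lay upstream of the gene, and the remainder covered 84.5% of the gene with its whole coding sequence of 969 bp and its 691 bp intron. The bulk of this peak was therefore outside the transcribed unit as annotated. Among the 3325 genes whose TSS lay in a peak, the peak reached a median of 902 bp upstream of it, and at 94.6% it reached at most as far as at Olig2.

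Olig1 (ENSMUSG00000046160), which acts in oligodendrocyte maturation, is a single-exon gene of 2.17 kb on the same strand, at chr16:91270014-91272184. The peak at chr16:91269973-91272898 was 2.93 kb wide and held the entire gene, which made up 74.2% of it. It ran on for 714 bp past the gene end. At only 2.17% of the 3325 genes with the TSS in a peak did the peak begin as near to the TSS or nearer. The width of the Olig1 peak was close to the median of 2.78 kb for peaks over a TSS, and 52.1% of them were narrower. The peaks of both Olig genes thus covered the full coding sequence, and they differed in how far they extended to each side of the gene.

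**Figure D3:**
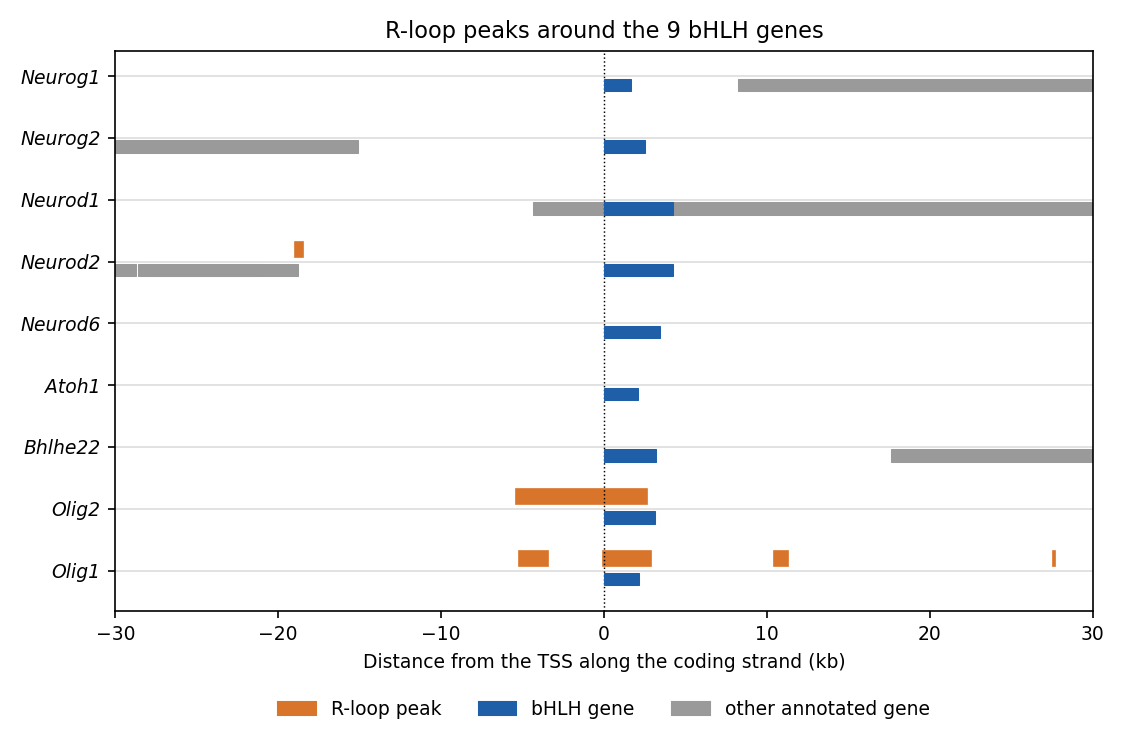
Position of R-loop peaks in kb from the TSS for the 9 genes, in the direction of transcription, with peaks in orange, the gene in blue and other annotated genes in grey. Peaks overlap 2 of the 9 genes, the one at Olig2 extending 5390 bp upstream and the one at Olig1 starting 41 bp before the TSS, and the peak 18.4 kb upstream of Neurod2 is outside the limit of 10 kb.

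Further peaks near Olig1 overlapped no annotated gene. The one upstream, at chr16:91264826-91266546, was 1.72 kb wide and ended 3468 bp before the TSS. The one downstream, at chr16:91280472-91281327, was 0.856 kb wide and lay 8.29 kb from the gene end. Both lay inside the limit of 10 kb. Beyond it, the next peak downstream of Olig1 was 25.4 kb from the gene and 163 bp wide. The next one upstream of Olig2 was 32.9 kb from the gene and 603 bp wide.

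The Olig genes lie in tandem, with 44.2 kb between their TSSs and no other annotated gene in the 41.1 kb between them. Peaks covered 4.29% of that stretch, and 36.4 kb lay between the end of the Olig2 peak, within Olig2, and the start of the next peak. In the 86.4 kb from 20 kb before Olig2 to 20 kb after Olig1, the 4 peaks covered 15.7% of the bases, compared to 1.54% of chromosome 16. This window was placed around genes that hold a peak, so a share above that of the chromosome follows in part from its choice. The neighbouring protein-coding gene Gm9881 held no peak, whereas the interferon receptor gene Ifnar2 held 2 and the interleukin receptor gene Il10rb held 1.

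**Figure D4:**
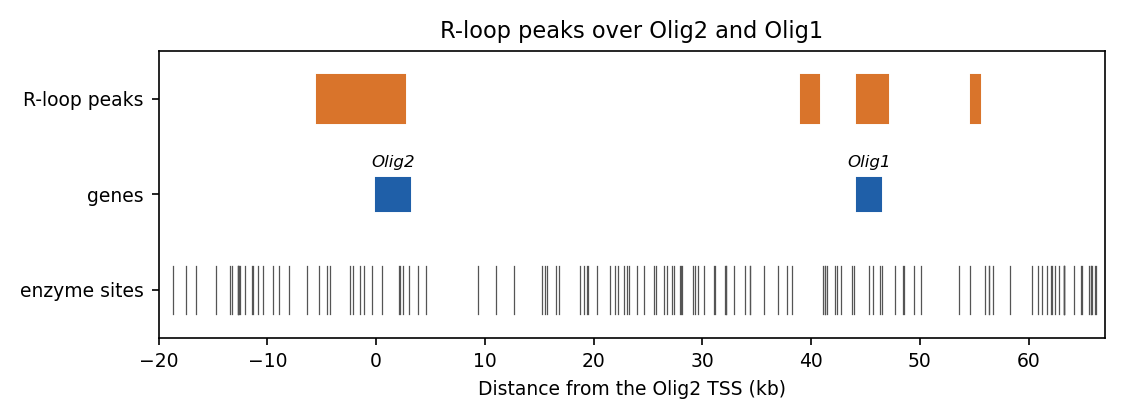
The Olig2 and Olig1 region of chromosome 16, with the position in kb from the Olig2 TSS, the R-loop peaks (orange), the genes (blue) and the sites of the 5 restriction enzymes (lines). Of the 4 peaks, 1 lies over each Olig gene and the other 2 lie on either side of Olig1, and the gap between the Olig2 peak and the next peak is 36.4 kb.

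The base composition of the 4 peaks differed. The Olig2 and Olig1 peaks had a GC content of 57.0 and 56.4%, against a median of 48.7% over all peaks. Their ratio of observed to expected CpG was 0.604 and 0.758, higher than in 90.8 and 95.2% of peaks. The peak upstream of Olig1 had a GC content of 47.5% and a CpG ratio of 0.0835, and the one downstream had 54.3% and 0.0688. These intergenic peaks were thus poor in CpG, below the median ratio of 0.212. GC skew on the plus strand was -0.0116 over the Olig2 peak, -0.0497 over the Olig1 peak, 0.111 over the peak upstream of Olig1 and -0.282 over the one downstream.

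Within the peaks, composition changed from one part of the gene to the next. In the Olig2 peak, the upstream part had a GC content of 55.6% and a skew of 0.00902. The coding sequence had 69.7% and -0.111, and the intron had a GC content of 54.3%. In the Olig1 peak, the coding sequence had 68.5% and -0.0936, and the 714 bp past the gene end had 42.2% and 0.00332. The coding sequences of both genes were therefore the most GC-rich of these parts and carried more C than G on the coding strand.

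For each peak, the 60 bases of the coding strand in which G most outnumbered C, outside annotated UTRs, are shown to place the G-rich sequence within the peaks. Capitals mark runs of at least 3 G, and all are on the plus strand of mm9. In the Olig2 peak this stretch was at chr16:91224727-91224786, about 1 kb upstream of the TSS, and it was a simple repeat with 31 G, 0 C and no run of 3 G. In the Olig1 peak it was at chr16:91272356-91272415, past the gene end, with 26 G and 7 C. In the peak upstream of Olig1 it was at chr16:91265431-91265490 and in the one downstream at chr16:91281211-91281270, each with 26 G and 3 C. The stretch upstream of Olig1 was, like that of the Olig2 peak, mostly a repeat of G and A with no run of 3 G, and reads on such repeats can be hard to place.
Olig2 peak: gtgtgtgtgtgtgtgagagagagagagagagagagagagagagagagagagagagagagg
Olig1 peak: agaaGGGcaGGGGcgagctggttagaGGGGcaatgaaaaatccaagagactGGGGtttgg
Upstream of Olig1: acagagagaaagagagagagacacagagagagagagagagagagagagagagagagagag
Downstream of Olig1: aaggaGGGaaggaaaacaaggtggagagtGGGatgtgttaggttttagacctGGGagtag

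Some genes without a peak held stretches with more G, in the gene or near its TSS. The number of G minus C in 60 bases was 36 at Neurod1 and 34 at Neurog2, compared to 31 in the Olig2 peak. Of the 7 genes without a peak, the lowest was Neurog1, with 18. The E-box CANNTG was about as frequent in the Olig2 and Olig1 peaks as in the list as a whole. There were 42 CANNTG in the Olig2 peak (5.23 per kb) and 15 in the Olig1 peak (5.13 per kb), against a mean of 5.59 per kb over the bases of all peaks. CAGCTG occurred 7 times in the Olig2 peak (0.872 per kb) and 3 times in the Olig1 peak (1.03 per kb). The peak upstream of Olig1 held 2 and the one downstream 0, and the mean over all peaks was 0.632 per kb. These counts are small.

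DNA was digested before DRIP, so a peak can extend over the whole of a restriction fragment. The fragment that held the TSS was 0.877 kb at Olig2 and 1.35 kb at Olig1, and the Olig2 peak touched 13 fragments and the Olig1 peak 5. The other peaks near Olig1 each lay within 1 fragment. Of the 8 edges of these 4 peaks, 1 was within 100 bp of a site, whereas 28.4% of all peak edges were. At the genes without a peak, the fragment with the TSS ranged from 0.357 kb at Neurod6 to 2.42 kb at Bhlhe22, and the median over protein-coding genes was 1.53 kb.

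The proneural genes Neurog1 and Neurog2, which start neuronal differentiation in cortical and sensory progenitors, had no peak within 10 kb. Neurog1 (ENSMUSG00000048904, chr13:56351866-56353524, minus strand) was 41.2 kb from the nearest peak, which lay upstream and overlapped Cxcl14, a chemokine gene. Neurog2 (ENSMUSG00000027967, chr3:127336054-127338549, plus strand) was 51.0 kb from the nearest, a peak of 4012 bp downstream that overlapped Alpk1. Of the 13509 protein-coding genes without a peak inside, 45.2 and 49.8% were nearer to one, so both genes lay close to the median of 51.7 kb.

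The NeuroD genes act later, in differentiating neurons. Neurod2 (ENSMUSG00000038255, chr11:98186729-98190962, minus strand) was the nearest of the 7 genes, with a peak of 506 bp 18.4 kb upstream. That peak overlapped the phosphatase inhibitor gene Ppp1r1b in part. Neurod6 (ENSMUSG00000037984, chr6:55627812-55631257, minus strand) was 132 kb from a peak that overlapped no gene. Neurod1 (ENSMUSG00000034701, chr2:79292678-79296908, minus strand) was 178 kb from a peak that overlapped Ssfa2. In GENCODE M1, Neurod1 overlaps Cerkl on the same strand and the long non-coding RNA Gm17325 on the opposite one, and neither held a peak. Within this subfamily the distance to a peak thus ran from 18.4 to 178 kb.

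Atoh1, which specifies cerebellar granule neurons and inner ear hair cells, and Bhlhe22, a repressor in cortical and other neurons, were also without a peak. Atoh1 (ENSMUSG00000073043, chr6:64679140-64681227, plus strand) was 111 kb from the nearest, downstream. Bhlhe22 (ENSMUSG00000025128, chr3:17954325-17957509, plus strand) was 822 kb from it, and 95.9% of genes without a peak were nearer to one. Its surroundings held 0 peaks within 500 kb.

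**Figure D5:**
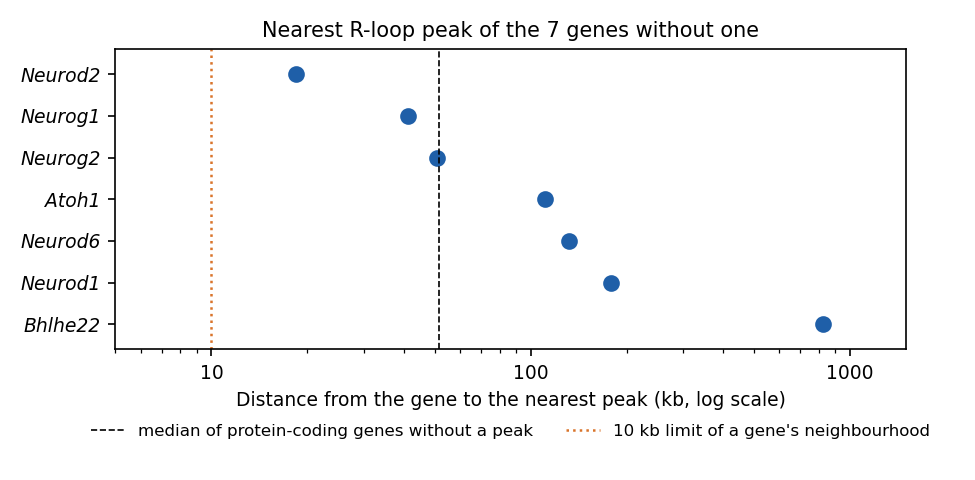
Distance in kb from each of the 7 genes without a peak inside to the nearest R-loop peak, on a log axis, with dashed lines for the median of protein-coding genes without a peak and dots for the limit of 10 kb. Neurod2 is the nearest at 18.4 kb, Bhlhe22 the farthest at 822 kb, and the median of the 13509 genes is 51.7 kb.

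The surroundings of the Olig genes and of Neurod2 held the most peaks. Within 500 kb there were 31 peaks around Olig1, 29 around Olig2, 27 around Neurod2, 13 around Neurog1, 12 around Neurod6, 7 around Neurod1, 6 around Neurog2 and 3 around Atoh1, against a median of 14 over protein-coding genes. Around Olig1, 14 of the 20 protein-coding genes within 500 kb held a peak, and around Olig2 13 of 21. Each of these counts includes the other Olig gene. The count was 18 of 33 around Neurod2, 4 of 14 around Neurog1 and 2 of 9 around Neurog2. It was 2 of 5 around Neurod1, 2 of 7 around Neurod6, 2 of 3 around Atoh1 and 0 of 3 around Bhlhe22. The share over all protein-coding genes was 39.6%. The windows around the Olig genes overlap for the most part. No peak was within 100 kb of Neurod1, Neurod6, Atoh1 or Bhlhe22, which was so for 21.2% of protein-coding genes.

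A GC-rich TSS was also found at genes without a peak. GC content within 2 kb of the TSS was 57.9% at Olig2 and 56.5% at Olig1, but also 59.8% at Neurod2, 57.7% at Neurog2, 56.3% at Neurog1 and 55.0% at Bhlhe22. These values were higher than at 90.0% or more of protein-coding genes. The CpG ratio of 0.738 was the same at Olig2 and Neurog2, and it was highest at Bhlhe22, with 0.761. Neurod6 was the poorest in GC, at 39.5%. In the first kb of the gene, GC skew was -0.0867 at Olig1 and -0.0287 at Olig2, with a median of 0.0390 over protein-coding genes. The values of the 7 genes without a peak, -0.151 to 0.0930, lay on both sides of these.

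Other bHLH genes were counted for comparison. Of 19 further genes of neural lineages, 4 (21.1%) held a peak, 2 had the TSS in one and 7 had one within 10 kb. Bhlhe40, a repressor linked to the circadian clock, had its TSS in a peak and held 2 peaks over 69.2% of its length. Of 21 bHLH genes of non-neural lineages, 1 (4.76%) held a peak, Bhlha15, where a peak of 30.1 kb also overlapped Tecpr1, and 4 had one within 10 kb. Over all protein-coding genes, 39.6% held a peak, 14.9% had the TSS in one and 51.3% had one within 10 kb. Among those of 1.66 to 4.23 kb, 25.2% held a peak. These shares were not tested against each other.

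Marker genes of the cell types that the culture could hold were read in the same way. Peaks were inside 5 of 8 markers of neural stem and progenitor cells, Nes, Sox2, Vim, Msi1 and Slc1a3. Fabp7, Prom1 and Gfap held none. Peaks were inside 2 of 4 markers of the oligodendrocyte lineage, Cspg4 and Mbp, and not inside Pdgfra or Sox10. At Mbp, the peak covered 0.291% of the gene. The counts were 0 of 3 for neurons, 1 of 3 for microglia and 1 of 3 for endothelium. The microglial gene was Csf1r, with 7.03% of its length covered, and the endothelial gene was Pecam1, with 1.21%. Neither had its TSS in a peak. A further neuron marker, Map2, was not found by its symbol. These lists are short, and 39.6% of all protein-coding genes held a peak. The list gives no level for these genes, and the part of other cell types in the peaks at Olig1 and Olig2 was not tested.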

How the data were processed

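DRIP-seq and input libraries were made from primary NSPCs. Per the labels and the study's methods, reads were trimmed with Trim Galore 0.6.6 and aligned to mm9 by an aligner not given in the sources used here, duplicates were removed and a Hidden Markov Model called the peaks. The authors deposited peak positions in base pairs only, and no count or score stands beside them. The methods give 3 biological replicates, with 3 DRIP reactions pooled per library, and how they were combined into 1 list is not given in the sources used here.

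Starts were converted from 0-based to 1-based and compared with GENCODE M1 and the NCBIM37 (mm9) sequence. An overlap needed at least 1 bp. Distances to restriction sites run from a peak edge to the centre of the site. The overlap, distance and coverage steps were tested on simulated data. The rule for named genes took the 9 genes, genes overlapped by a peak within 10 kb of them and listed bHLH genes whose TSS lay in a peak, and any other gene was named after its values were seen. The values of some listed genes are not reported here. The genes and lists were chosen with earlier results of these data known, and promoter skew, upstream reach, nearest-peak genes, neighbour counts and the 60 bases of intergenic peaks were added after seeing the data. Alternatives were other peak widths, merging, overlap rules and flanks. Python 3.11.15, numpy 2.4.6, pysam 0.24.0 and matplotlib 3.10.9 were used.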

Additional observations from a re-analysis of the deposited data

How the results depend on the processing

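Of 31 alternatives computed for the counts of genes and peaks, 28 left the value within 1.5 times and 3 moved it. The number of the 9 genes with a peak inside fell from 2 to 1 when the gene had to hold the larger part of the peak, and likewise to 1 when it had to hold the peak midpoint, because most of the Olig2 peak lies upstream of the gene. With 2 kb added to each side of the gene, non-neural bHLH genes with a peak rose from 1 to 2, since more bases were searched. A flank of 20 kb gave 3 of the 9 genes and 5 peaks, adding Neurod2, and keeping only peaks of at least 1 kb left 3 peaks near them. No paired analysis was possible because 1 peak list was analysed. The list holds no depth or score, so weak and strong peaks count alike and a missing peak does not show that no R-loop forms there. Digestion before DRIP limits how finely a peak is placed.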
